A study of Homo sapiens with 6 samples.

Results

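Integrins are the receptors by which cells hold on to the extracellular matrix, and focal adhesion proteins connect them to actin. The 37 genes described here are 21 integrin subunits and 16 focal adhesion proteins, picked out by gene symbol from a list drawn up with earlier results of these data known, out of 58174 genes in the deposited table. All 37 symbols were found. Polyadenylated RNA was measured in KNS42 cells, an established line from a pediatric glioblastoma, grown in DMEM with serum and collected 72 hours after transfection. The siC group (n = 3) received a control siRNA and the siMSI1 group (n = 3) a pool of siRNAs against MSI1, an RNA-binding protein of neural stem cells. All 6 libraries come from this 1 line, and nothing in the labels says whether the 3 libraries of a group came from separate cultures, so p-values measure only the spread between these libraries, which may be technical. Between 13087025 and 18024080 reads per library fell on genes. The closest pair of libraries still differed by more than counting noise (chi-square of 3.55 per degree of freedom), so none was treated as a repeat of another.

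The libraries matched their labels. MSI1 stood at 63.7, 61.9 and 66.9 FPKM in the siC libraries and at 12.1, 12.3 and 11.2 FPKM in siMSI1, where FPKM is fragments per length of the gene model and per depth of the library. The groups were far apart (limma, log2 fold change -2.43, SE 0.067, Benjamini-Hochberg adjusted p = 8.71e-06). Of the markers of neural and glial cells, VIM (824 to 1056 FPKM over the 6 libraries) and SOX2 (243 to 305 FPKM) were abundant. NES (58.2 to 70.2 FPKM) and PDGFRA (20.6 to 25.3 FPKM) were lower and EGFR was low (0.444 to 0.721 FPKM). NCAM1 had only 3 to 11 reads per library, and S100B and OLIG2 had no read in any library. VIM, SOX2, NES, PDGFRA and EGFR did not pass an adjusted p of 0.01 with limma (log2 fold changes -0.26, -0.23, -0.16, 0.20 and 0.34). GFAP, an intermediate filament of astrocytes, rose from 1.63 ± 0.335 to 4.61 ± 0.45 FPKM (mean ± SD, n = 3, log2 fold change 1.46, limma adjusted p = 9.0e-04) and FABP7, a fatty acid binding protein of radial glia, fell from 36.1 ± 2.05 to 16.6 ± 1.38 FPKM (log2 fold change -1.12, limma adjusted p = 2.7e-04). Their part in the results below was not tested. Of the leukocyte markers AIF1 had no read, PTPRC, CD53, CD3E and ITGAL had at most 3 reads in a library, CD14 had 1 to 9 and LCP1 4 to 11. Of the platelet markers PF4 had no read, GP9 at most 1 and ITGA2B 1 to 9. Of the endothelial markers, PECAM1 had 0 to 1 reads per siC library and 5 to 8 per siMSI1 library and CDH5 0 to 3 and 9 to 22, in both cases without overlap, while VWF had 14 to 37 and TEK 22 to 40 over the 6 libraries, all under the limit for testing. Of the epithelial markers, KRT18 was present at 23.1 ± 1.8 FPKM in siC and 19.4 ± 1.96 FPKM in siMSI1. KRT8 was near 1.06 FPKM in siC and 1.05 FPKM in siMSI1, EPCAM and CDH1 had at most 6 reads in a library, and KRT5 had 2 to 9 reads per siC library and 11 to 24 per siMSI1 library. In bulk RNA, fewer cells that make a transcript and less of it per cell cannot be told apart.

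An integrin is a pair of 1 alpha and 1 beta subunit, and the pair decides which matrix protein is bound. When talin and kindlin attach to the beta tail, the receptor switches to its active form, and paxillin, FAK, p130Cas, vinculin and the ILK complex gather at the site. Glioma cells use laminin, vitronectin and collagen receptors of this kind to hold on to vessels and nerve tracts. MSI1 binds short RNA motifs built around UAG, mostly in 3′UTRs.

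Because MSI1 is an RNA-binding protein, the 3′UTRs of the 24 tested members were searched for the letters GTAGT or ATAGT, also with another T as GTTAGT or ATTAGT, and with 2 more as GTTTAGT or ATTTAGT, on the sense strand, with overlapping matches counted, in the Ensembl canonical transcript of GENCODE 44 on GRCh38. At least 1 match was found in 16 of the 24 (66.7%), against 71.3% of 11264 tested protein-coding genes, and the members held 1.91 matches per kb against 2.16. The windows below show the matches of the members that passed the test and of ITGAV, the member with the most matches, with the motif in capitals. ITGA6 (ENSG00000091409, chr2:172427354-172506459, plus strand) had 4 matches in 2391 bases, of which those at chr2:172504690-172504714 and at chr2:172505693-172505717 are given. PXN (ENSG00000089159, chr12:120210439-120265771, minus strand) had 1 match in 1867 bases, at chr12:120210611-120210635. ITGAV (ENSG00000138448, chr2:186590010-186680901, plus strand) had 23 matches in 3609 bases, and the 2 at chr2:186680204-186680228 and chr2:186680207-186680231 overlap each other.
ITGA6 upstream window: tgccattgggGTAGTtgtgtttcaa
ITGA6 downstream window: aacacagtttGTAGTgccactgttg
PXN: cgctctgtttATAGTgacccaccct
ITGAV upstream window: gcttgtatatGTAGTagtttgatga
ITGAV downstream window: tgtatatgtaGTAGTttgatgaata

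Such matches are common in 3′UTRs of these lengths. Of 1569 tested genes with a 3′UTR within 20% of the length of that of ITGA6, 95.1% held at least 1 match and 65.0% held as many as ITGA6 or more. For PXN, 89.2% of 1579 genes of like length held at least 1. For ITGAV, which is shown because its count is the highest of the 24, 0.36% of 1379 genes of like length had as many matches or more, a value that does not allow for this choice. Of the other members with a longer 3′UTR than that of TNS3 (2 matches in 2922 bases), ITGA2 had 12 matches in 4180 bases, ITGB8 10 in 5757, PARVA 10 in 7431, LIMS1 9 in 3247 and TLN2 8 in 4021. No match was found in the whole 3′UTR of ITGA3, ITGA5, ITGA7, ITGB4, TLN1, ILK, BCAR1 or TNS2. A match is a run of letters and not a measured site of binding.

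Upon MSI1 depletion 2 of the tested members changed. ITGA6, the alpha subunit of laminin receptors, fell, and PXN, which encodes the adaptor paxillin, rose. Both changes were under 2-fold, as were those of all 24 tested members, where 4.64% of all genes tested reached 2-fold. Of the 37 genes, 24 reached a mean of 0.5 FPKM over the 6 libraries and were tested with limma on log2(FPKM + 0.1) at an adjusted p of 0.01, with 1 lower and 1 higher. That is 8.33% of the 24, near the share among all 15069 genes tested, where 11.0% passed (5.83% lower and 5.15% higher). With voom on recovered reads, 9 of the 24 passed (17.9% of all genes did). With limma, 0 passed without siC replicate 1, 2 or 3 or without siMSI1 replicate 1. The count was 2 without siMSI1 replicate 2 and 3 without siMSI1 replicate 3. Over all genes the shares in these 6 fits were 3.43%, 5.6%, 5.32%, 5.41%, 5.85% and 10.6%, in the same order. Members at an unadjusted p under 0.05 numbered 11, 11, 10, 9, 11 and 12. The share of all genes under that unadjusted p was not counted. Such counts, here and below, therefore have no background beside them and do not show that members changed. Among tested genes with a mean of at least 2 FPKM, 14.0% passed. At an adjusted p of 0.05, 9 of the 24 passed (37.5%) against 25.1% of all genes. The share was 28.7% of protein-coding genes and 30.5% of genes with a mean of at least 2 FPKM. The 3 lower genes at this threshold were ITGA2, ITGA6 and ITGB8, and the 6 higher ones were ITGA7, ITGAV, ITGB4, TLN2, PXN and BCAR1. The 3 siMSI1 values lay entirely outside the range of the 3 siC values for 12 of the 24 (50.0%), with 4 lower and 8 higher, against 42.8% of all genes (21.5% lower and 21.4% higher) and 48.4% of the protein-coding ones, as all members are. The median log2 fold change of the 24 was 0.11, against 0.00 over all genes, and the median size without sign was 0.27 against 0.24. The plot of fold changes by class shows integrin subunits on both sides of 0 and 9 of the 13 tested focal adhesion proteins above 0.

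**Figure D1:**
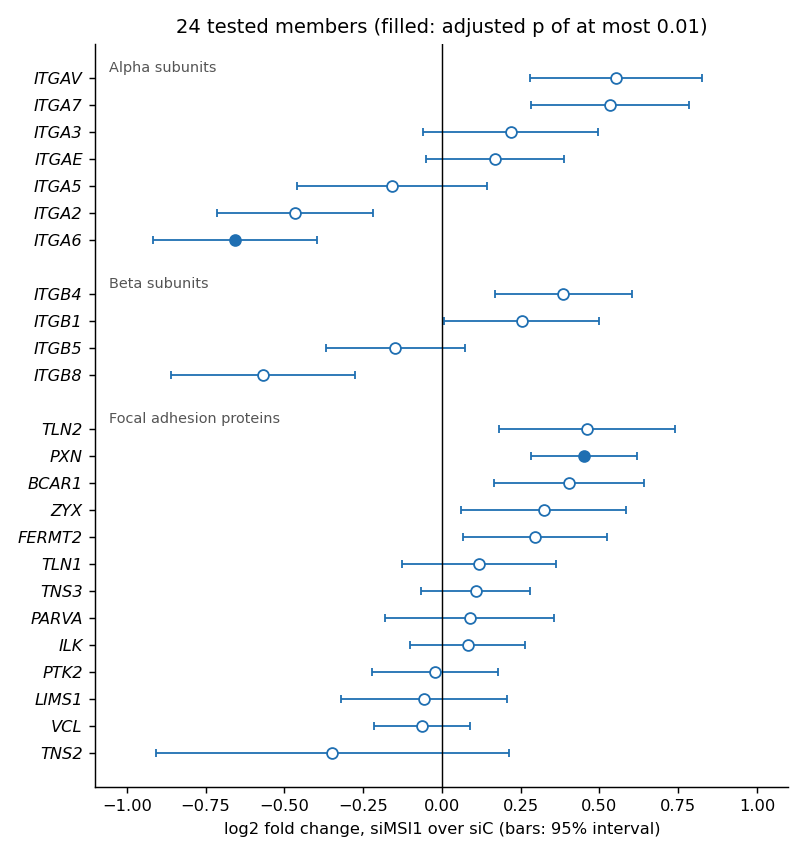
Log2 fold change (siMSI1 over siC, on the log2(FPKM + 0.1) scale) of the 24 tested members, grouped as alpha subunits, beta subunits and focal adhesion proteins. Points are limma estimates from 3 libraries per group and bars their 95% intervals. Filled points passed an adjusted p of 0.01, which holds for ITGA6 at -0.66 and PXN at 0.45 and for no other member.

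Laminin receptors come first among the alpha subunits. ITGA6, which pairs with ITGB1 or ITGB4 and marks glioblastoma stem cells, was at 6.03, 6.43 and 5.46 FPKM in the siC libraries and at 3.73, 4.21 and 3.34 FPKM in siMSI1. The groups did not overlap, and the siMSI1 mean was 63.0% of the siC mean (log2 fold change -0.66, SE 0.11, limma adjusted p = 0.0056). Between 313 and 760 reads per library stood behind these values. The adjusted p was 0.0281 without siC replicate 1, 0.0217 without siC replicate 2, 0.0117 without siC replicate 3, 0.021 without siMSI1 replicate 1, 0.0191 with no filter on low genes and 0.0153 with plain moderation, and it was under 0.01 without either of the other libraries. ITGA7, a laminin receptor best known from muscle, was at 3.04, 3.41 and 3.65 FPKM in the siC libraries and at 4.56, 4.80 and 5.39 FPKM in siMSI1. These groups did not overlap either, with the siMSI1 libraries above, but the gene did not pass 0.01 (log2 fold change 0.53, limma adjusted p = 0.0111). METTL7B overlaps ITGA7 on the opposite strand and had a log2 fold change of 0.59 (limma adjusted p = 0.032), and their reads cannot be told apart where strand was not used in the counting. ITGA3, the third laminin receptor, was at 11.4, 10.3 and 11.3 FPKM in the siC libraries and at 13.4, 10.6 and 14.7 FPKM in siMSI1, with siMSI1 replicate 2 inside the siC range (log2 fold change 0.22, limma adjusted p = 0.225). The laminin receptor subunits thus lay on both sides of 0.

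ITGAV, the subunit of vitronectin receptors that recognise the RGD sequence, was at 11.6, 13.8 and 11.0 FPKM in the siC libraries and at 19.4, 18.8 and 15.4 FPKM in siMSI1. All siMSI1 values were above all siC values, with siMSI1 replicate 3 nearest to the controls (log2 fold change 0.55, SE 0.12, limma adjusted p = 0.0131). Without siMSI1 replicate 3 it passed, at an adjusted p of 0.0052. ITGA5, the fibronectin receptor subunit, was at 4.56 ± 0.485 FPKM in siC and 4.09 ± 0.556 FPKM in siMSI1 (n = 3, limma adjusted p = 0.416). ITGA2, the 1 collagen receptor subunit that reached the limit for testing, was at 5.37 ± 0.596 and 3.84 ± 0.237 FPKM without overlap (log2 fold change -0.47, limma adjusted p = 0.0175).

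ITGAE, known from lymphocytes of epithelia, was at 8.95, 9.83 and 10.1 FPKM in the siC libraries and at 10.1, 12.2 and 10.3 FPKM in siMSI1. The groups touched without overlapping (log2 fold change 0.17, limma adjusted p = 0.233). Its level in cells with hardly any PTPRC read is given as measured, and GSG2 lies inside the gene on the opposite strand. None of the other alpha subunits reached 0.5 FPKM: ITGA1, ITGA10 and ITGA11, which bind collagen, ITGA4 and ITGA9, and ITGA8, which had a single read in 1 of the 6 libraries. ITGA10 had between 10 and 16 reads per siC library and between 1 and 6 per siMSI1 library, too few for the test.

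Among the beta subunits no gene passed 0.01 with limma, although 2 of 4 passed with voom on recovered reads, by which 17.9% of all genes passed. An unadjusted limma p under 0.05 was found for 3 of 4, with no share of all genes counted beside it. ITGB4, the partner of ITGA6 that links laminin to intermediate filaments, was at 60.8, 55.8 and 63.6 FPKM in the siC libraries and at 78.0, 70.6 and 87.7 FPKM in siMSI1. The groups did not overlap (log2 fold change 0.39, SE 0.094, limma adjusted p = 0.0213). Its neighbour GALK1 on the opposite strand had a log2 fold change of -0.55. ITGB1, the common partner of most alpha subunits and the other partner of ITGA6, was at 57.4, 64.1 and 52.9 FPKM in the siC libraries and at 72.1, 75.8 and 60.5 FPKM in siMSI1, where replicate 3 lay inside the siC range (log2 fold change 0.25, limma adjusted p = 0.121).

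ITGB5, a partner of ITGAV, was at 35.7, 33.5 and 39.8 FPKM in the siC libraries and at 30.8, 31.0 and 36.5 FPKM in siMSI1. The groups overlapped (log2 fold change -0.15, limma adjusted p = 0.297). ITGB8, another partner of ITGAV and an activator of latent TGF-beta, was at 6.71, 7.57 and 6.04 FPKM in the siC libraries and at 4.90, 4.87 and 3.86 FPKM in siMSI1. Each siMSI1 value lay under the lowest siC value (log2 fold change -0.57, SE 0.13, limma adjusted p = 0.0152). An antisense transcript over ITGB8, AC004130.1, had a log2 fold change of -0.63 (limma adjusted p = 0.011), and without stated strand use in the counting the reads of the 2 cannot be told apart. ITGB3, at 0.364 FPKM on average, and the leukocyte subunits ITGB2 and ITGB7 with ITGB6, all at under 0.1 FPKM, were too low to test.

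**Figure D2:**
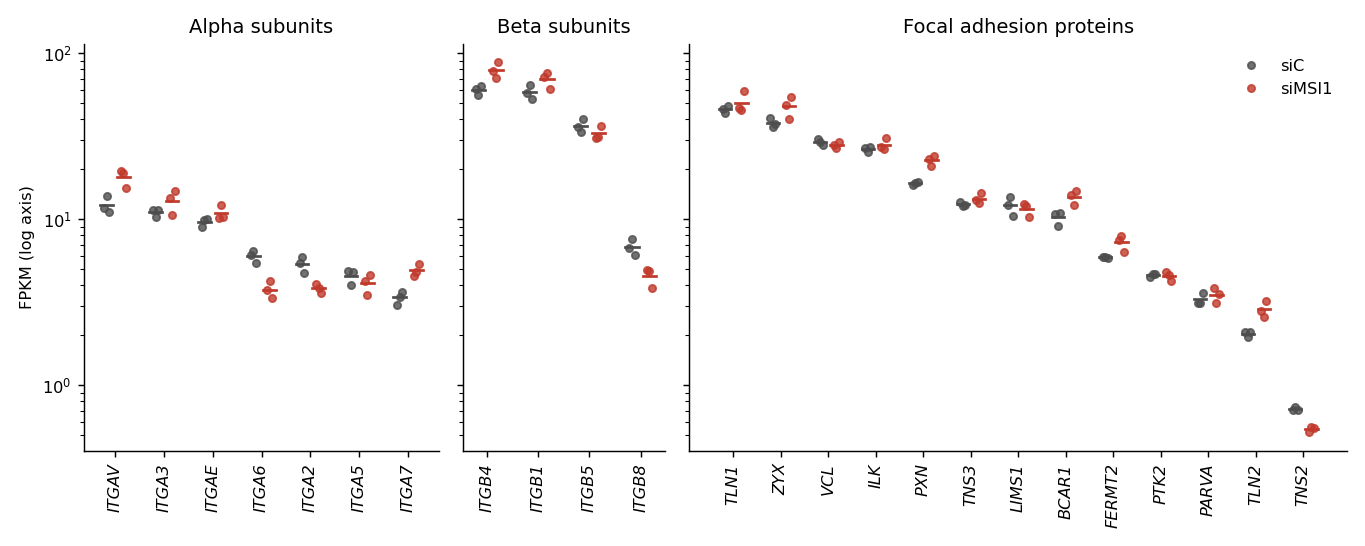
FPKM of the 24 tested members in each library on a log axis, siC and siMSI1 side by side, with 1 point per library and a line at each group's mean. The values run from 0.52 FPKM for TNS2 to 87.7 FPKM for ITGB4.

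The order of levels in siC depends on the length of each gene model. ITGB4 (60.1 ± 3.99 FPKM) and ITGB1 (58.1 ± 5.62 FPKM) led and did not differ beyond their spread. TLN1 (45.9 ± 2.1 FPKM) came next and stood clear of its neighbours. ZYX (37.8 ± 2.51 FPKM) and ITGB5 (36.3 ± 3.22 FPKM) overlapped, followed by VCL, ILK and PXN, each apart from the next. TNS3, ITGAV, LIMS1 and ITGA3 lay between 12.3 and 11.0 FPKM, each overlapping the next in line.

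FPKM is per length of the whole gene model, for example 6011 bases for ITGB1 and 15156 for ITGB8. Levels, shares and ratios between genes depend on these lengths. With that limit, the subunits of each kind were summed as a description. The 13 alpha subunits summed to 51.7, 54.0 and 51.5 FPKM in siC and to 59.8, 58.3 and 57.6 FPKM in siMSI1, and the 8 beta subunits to 161, 161 and 163 against 186, 183 and 189 FPKM. Both sums were higher in every siMSI1 library than in any siC library. Within the alpha sum, ITGAV made up 23.1% ± 2.19 in siC and 30.4% ± 3.23 in siMSI1, whereas ITGA6 made up 11.4% ± 0.698 and 6.42% ± 0.737 and ITGA2 10.2% ± 0.915 and 6.56% ± 0.284 (SD, n = 3). Within the beta sum, ITGB4 made up 37.1% ± 2.3 and 42.3% ± 3.9, ITGB5 22.5% ± 1.86 and 17.6% ± 1.5, and ITGB8 4.19% ± 0.495 and 2.45% ± 0.349. A share also moves with the other subunits of its sum. The FPKM of ITGB5 itself overlapped between the groups (log2 fold change -0.15). For the ITGA6 and ITGB4 pair, which forms 1 receptor, the ratio of ITGB4 to ITGA6 RNA was 10.1, 8.67 and 11.7 in siC and 20.9, 16.7 and 26.3 in siMSI1. That these ratios do not overlap follows from the values of both genes. The ratio of the beta to the alpha sum overlapped, at 3.12, 2.99 and 3.16 in siC and 3.11, 3.13 and 3.28 in siMSI1.

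**Figure D3:**
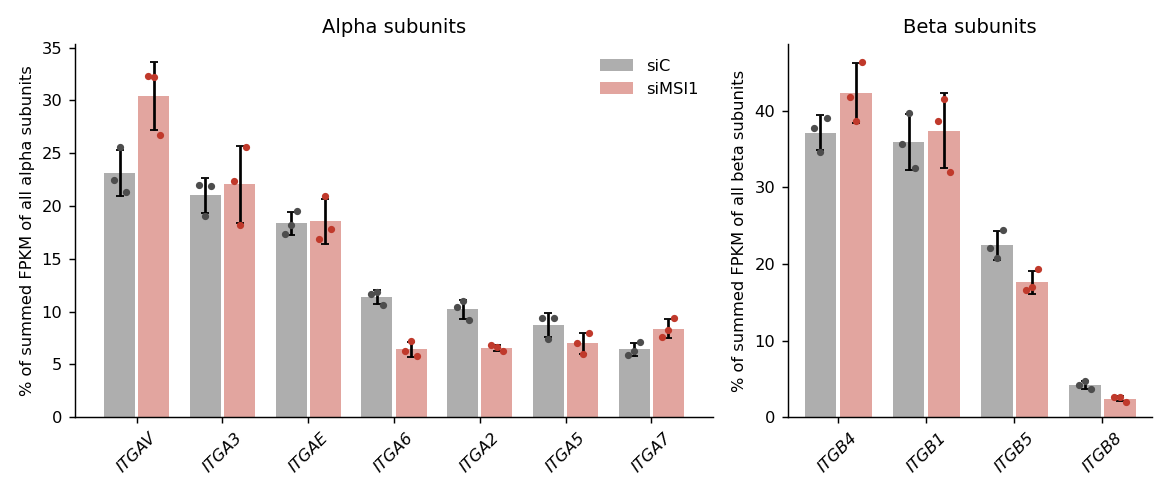
Share (%) of each integrin subunit that held over 1% in the summed FPKM of the alpha subunits (left) and of the beta subunits (right), as means of 3 libraries with SD and 1 point per library, siC and siMSI1 side by side. ITGAV went from 23.1% to 30.4% and ITGA6 from 11.4% to 6.42% of the alpha sum.

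Talins and kindlins bind the beta tail and activate the receptor. TLN1, the abundant talin, was at 46.1, 43.6 and 47.8 FPKM in the siC libraries and at 46.4, 45.2 and 58.6 FPKM in siMSI1. The groups overlapped and only siMSI1 replicate 3 was high (log2 fold change 0.12, limma adjusted p = 0.458). TLN2, the second talin, was at 2.04 ± 0.0826 and 2.85 ± 0.327 FPKM and FERMT2, the kindlin of these cells, at 5.87 ± 0.0492 and 7.26 ± 0.843 FPKM, both without overlap and with siMSI1 above (limma adjusted p = 0.0277 and 0.063). FERMT1, the epithelial kindlin, had at most 2 reads in a library.

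The ILK complex joins ILK with a PINCH protein and a parvin and ties integrins to actin. ILK was at 26.8, 25.4 and 27.2 FPKM in the siC libraries and at 27.0, 26.4 and 30.9 FPKM in siMSI1 (log2 fold change 0.08, 95% interval -0.10 to 0.26, limma adjusted p = 0.488). LIMS1, which encodes PINCH1, was at 12.2, 13.5 and 10.4 FPKM in the siC libraries and at 12.3, 12.1 and 10.3 FPKM in siMSI1 (log2 fold change -0.06, limma adjusted p = 0.755). Both genes overlapped between the groups, and LIMS1 has near-identical copies, LIMS3 and LIMS4, that can share its reads. PARVA was at 3.28 ± 0.278 and 3.49 ± 0.373 FPKM (limma adjusted p = 0.622), and PARVB had at most 1 read in a library. Of the 3 tested members of the complex, 0 passed with limma, 0 had an unadjusted p under 0.05 and 0 passed with voom. With 11.0% and 17.9% of all genes passing by the 2 tests, a count of 0 among 3 genes says little.

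Among the kinase and adaptors, PXN, the scaffold on which FAK and vinculin dock, was at 16.1, 16.5 and 16.8 FPKM in the siC libraries and at 23.0, 20.8 and 24.0 FPKM in siMSI1. The siC values lay close together and all siMSI1 values were above them, at 137% of the siC mean (log2 fold change 0.45, SE 0.072, limma adjusted p = 0.0041). Between 1800 and 2570 reads per library were counted. The adjusted p was 0.0266 without siC replicate 1, 0.0157 without siC replicate 2, 0.0152 without siC replicate 3, 0.0188 without siMSI1 replicate 1, 0.0134 with no filter and 0.016 with plain moderation, and it was under 0.01 without either of the other libraries. The opposite-strand transcript PXN.AS1 had a log2 fold change of 0.11 (limma adjusted p = 0.417).

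BCAR1, which encodes the FAK substrate p130Cas, was at 10.7, 9.05 and 10.9 FPKM in the siC libraries and at 13.9, 12.2 and 14.7 FPKM in siMSI1. The siMSI1 values were all above the siC values (log2 fold change 0.40, SE 0.10, limma adjusted p = 0.0251). PTK2, which encodes the kinase FAK itself, was at 4.61 ± 0.136 FPKM in siC and 4.55 ± 0.281 FPKM in siMSI1 (log2 fold change -0.02, 95% interval -0.22 to 0.18, limma adjusted p = 0.886).

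None of the 4 tested actin linkers and LIM proteins passed with limma or with voom on recovered reads (11.0% and 17.9% of all genes did), and 1 had an unadjusted p under 0.05. VCL, which encodes vinculin and couples talin to actin, was at 30.4, 29.2 and 27.9 FPKM in the siC libraries and at 27.7, 26.8 and 29.2 FPKM in siMSI1. The groups overlapped (log2 fold change -0.06, 95% interval -0.22 to 0.09, limma adjusted p = 0.529). ZYX, which encodes the tension-sensitive LIM protein zyxin, was at 40.6, 35.7 and 37.2 FPKM in the siC libraries and at 48.3, 40.2 and 54.3 FPKM in siMSI1, where replicate 2 lay just inside the siC range (log2 fold change 0.32, limma adjusted p = 0.0727). TNS3, the most abundant tensin, was at 12.7, 12.0 and 12.1 FPKM in the siC libraries and at 13.1, 12.4 and 14.3 FPKM in siMSI1, again with overlap (log2 fold change 0.11, limma adjusted p = 0.340). TNS2 was low, at 0.717 ± 0.018 and 0.542 ± 0.0196 FPKM, without overlap but with a wide interval (log2 fold change -0.35, 95% interval -0.91 to 0.21). TNS1 had at most 10 reads in a library.

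The rest of the adhesion pathway was described with 108 other genes, of which 91 were tested. Here 16 passed (17.6%, against 11.0% of all genes and 13.1% of the protein-coding ones), 12 lower and 4 higher, and the median log2 fold change was -0.13. The list was drawn up with earlier results of these data known, so its share is a description. The groups did not overlap for 54 of the 91 (59.3%), 36 lower (39.6%) and 18 higher (19.8%). Of tested protein-coding genes this held for 48.4%, with 24.8% lower and 23.6% higher. The integrins and core adhesion proteins held only 1 call in each direction, too few to set against the 12 lower and 4 higher calls here. The lists were not tested against each other. The count of 16 became 5 without siC replicate 1, 8 without siC replicate 2, 7 without siC replicate 3, 8 without siMSI1 replicate 1, 7 without siMSI1 replicate 2 and 21 without siMSI1 replicate 3, beside 3.43%, 5.6%, 5.32%, 5.41%, 5.85% and 10.6% of all genes in the same order.

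Several of these calls were paralogs or partners of the members. LIMS2, which encodes PINCH2 and is the paralog of LIMS1, was at 2.39, 1.95 and 2.90 FPKM in the siC libraries and at 0.983, 0.773 and 1.22 FPKM in siMSI1. The groups were well separated (log2 fold change -1.21, SE 0.21, limma adjusted p = 0.0057), while LIMS1, about 5 times as abundant in siC, had a log2 fold change of -0.06. NEDD9, the paralog of BCAR1, fell from 5.91 ± 0.606 to 3.68 ± 0.419 FPKM (log2 fold change -0.67, limma adjusted p = 0.0062), where BCAR1 itself was at 0.40 on the log2 scale. TRIP6, of the zyxin family, rose from 107 ± 6.84 to 140 ± 6.87 FPKM (log2 fold change 0.40, limma adjusted p = 0.0077) and RSU1, which binds PINCH1, from 27.2 ± 0.998 to 35.1 ± 1.34 FPKM (log2 fold change 0.36, limma adjusted p = 0.0059). With 1 library left out the log2 fold changes ran from -1.35 to -1.05 for LIMS2, from -0.75 to -0.58 for NEDD9, from 0.34 to 0.43 for TRIP6 and from 0.33 to 0.39 for RSU1, while the calls were mostly lost. NEDD9 and TRIP6 missed 0.01 whichever library was left out, with adjusted p of 0.0106 to 0.0317 and 0.0124 to 0.0337, RSU1 passed only without siMSI1 replicate 3 (0.00985), and LIMS2 only without siC replicate 2 (0.00937) or siMSI1 replicate 3 (0.00473). The other tested paralogs PTK2B, TGFB1I1, LPXN and LPP had log2 fold changes of -0.43, 0.19, -0.33 and 0.21 and did not pass, and FERMT3, PARVG, TNS4, EFS and CASS4 were too low to test.

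Calls in signalling and actin control were mostly lower. CDC42, the GTPase of filopodia, was at 45.5, 46.9 and 44.1 FPKM in the siC libraries and at 16.3, 18.6 and 17.1 FPKM in siMSI1, which is 38.0% of siC and the largest change of the list (log2 fold change -1.39, SE 0.071, limma adjusted p = 1.3e-04). The gene has pseudogenes that can share its reads. PAK4, a kinase acting downstream of CDC42, fell from 25.6 ± 2.71 to 13.5 ± 1.87 FPKM and FYN, a Src family kinase that acts with integrins, from 27.6 ± 0.84 to 14.7 ± 0.818 FPKM (log2 fold change -0.92 and -0.91). ARHGEF6, an exchange factor that meets parvin and PAK at adhesions, fell from 5.85 ± 0.338 to 3.42 ± 0.28 FPKM (log2 fold change -0.76, limma adjusted p = 0.0016), and missed 0.01 only without siC replicate 1 (0.0122). Each of these 4 genes was lower in all siMSI1 libraries than in any siC library.

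Of the actin proteins, PDLIM5, a PDZ and LIM protein of stress fibres, fell from 4.69 ± 0.395 to 1.93 ± 0.0783 FPKM (log2 fold change -1.24, limma adjusted p = 4.2e-04). MYL12B, a myosin light chain, fell from 101 ± 8.58 to 68.2 ± 4.0 FPKM (log2 fold change -0.57, limma adjusted p = 0.0027), and missed 0.01 without siC replicate 1 (0.0109), without siC replicate 3 (0.0105) and with plain moderation (0.0129). Its near-identical neighbour MYL12A, at 2.82 FPKM in both groups, can share reads with it. CDC42, FYN, PAK4 and PDLIM5 were past 0.01 whichever library was left out.

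Regulators of integrin activity gave 3 calls among 13 tested genes and membrane partners 2 among 13, beside 11.0% of all genes. RAPH1, which encodes lamellipodin and binds Ena/VASP proteins, fell from 3.32 ± 0.281 to 1.81 ± 0.155 FPKM (log2 fold change -0.84, limma adjusted p = 0.0026), and missed 0.01 without siC replicate 1 (0.0182), siC replicate 2 (0.0126) or siMSI1 replicate 2 (0.011). KANK2, which binds talin, fell with a log2 fold change of -0.44, and RAB11A, which recycles integrins to the surface, with -0.36, while the tetraspanin CD9 rose by 0.32. CD44, the hyaluronan receptor that the study followed, fell from 84.8 ± 1.64 to 61.9 ± 3.89 FPKM, at 73.0% of siC against 63.0% for ITGA6. KANK2 and CD44 were past 0.01 in 1 of the 6 sets of 5 libraries, without siMSI1 replicate 3 (0.00229 and 0.00233), and CD9 and RAB11A in none (0.0109 to 0.0435 and 0.0101 to 0.0423).

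**Figure D4:**
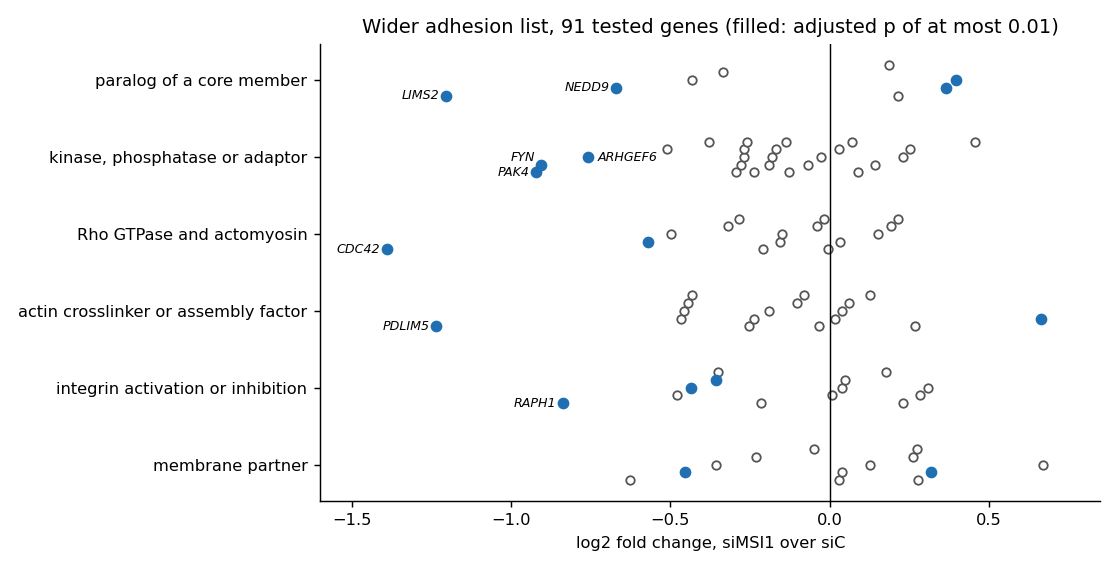
Log2 fold change (siMSI1 over siC) of the 91 tested genes of the wider adhesion list, 1 point per gene, by class on the vertical axis. Filled points passed an adjusted p of 0.01 with limma, 12 below 0 and 4 above, and genes that passed with a value of -0.6 or lower are named.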

How the data were processed

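Per the labels, RNA was taken with TRIZOL, enriched for poly(A) and sequenced from strand-specific libraries with 150 base reads. The submitters' notes name cutadapt 1.14, HISAT2 2.1.0, SAMtools 1.5, featureCounts 1.5.3, edgeR 3.18.1 and hg38, and whether counting used strand is not given in the sources used here. The deposited values are FPKM per gene, with each gene's length (another deposited column, in bases). FPKM times length, scaled by each library's effective size, gave whole reads for 100% of values within 0.01 reads, used for depth and for voom. A total of 28328 genes at 0 in all libraries were left out throughout.

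Genes averaging 0.5 FPKM or more were fitted with limma 3.58.1 (R 4.3.3) on log2(FPKM + 0.1), trend and robust moderation, and Benjamini-Hochberg adjustment over 15069 genes at 0.01. Fold changes are on that scale and understate changes of low genes. SDs are between libraries. The scripts were tested on simulated data. Members and lists were chosen with earlier results of these data known. Values by library are given for members that passed, that averaged at least 10 FPKM, or were among the 3 other subunits with the largest fold change, and for some others. Of the wider list, 1 gene that the rule would name is counted and not reported here, nor is 1 marker. Alternatives changed the added value, filter, scaling, moderation, test, threshold, block and libraries. Exact permutation of 3 against 3 libraries cannot go below p = 0.1. Coordinates and 3′UTRs come from GENCODE 44.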

Additional observations from a re-analysis of the deposited data

How the results depend on the processing

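The count of genes past the threshold moved with the processing. Over all genes (1655), it was 792 with no filter, 847 with plain moderation and 2690 with voom. With a mean FPKM of at least 1, it was 1851 (14.2% of 13040 genes). It was 3787 at an adjusted p of 0.05, 294 with a 2-fold change in addition, and 517 to 1603 with 1 library left out. For the 24 members (2), it was 0 with no filter and with plain moderation (limma, 11 and 12 at an unadjusted p under 0.05), 4 with a mean FPKM of at least 1, 9 with voom, 9 at an adjusted p of 0.05, 0 with a 2-fold change in addition, and 0 to 3 with 1 library left out. The members were at 0 without siC replicate 1, 2 or 3 and without siMSI1 replicate 1 (11, 11, 10 and 9 at an unadjusted p under 0.05). For the wider list (16), it was 9 with no filter, 7 with plain moderation, 33 with voom, 37 at an adjusted p of 0.05, 3 with a 2-fold change in addition, and 5 to 21 with 1 library left out. The causes were not tested. With the replicate number as a block, the count was 2250 over all genes, 7 of the members and 24 of the wider list, and voom with the block gave 4870, 13 and 54. The labels do not say that the numbers pair libraries. Deviations of same-numbered libraries correlated weakly (r of -0.0661, 0.0783 and 0.083) and replicate 1 not best with its own number, while the second principal component (19.4%) ordered the replicates 2, 1, 3 in both groups, so a pairing is not established.

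ITGA6 and PXN each passed in 10 of 16 alternatives. MSI1 passed in all 16. Direction turned for 3 members with fold changes near 0. TLN1 was at -0.0017 without siMSI1 replicate 3, LIMS1 at 0.0299 without siC replicate 2 and 0.0239 without siMSI1 replicate 3, and PTK2 at 0.026 without siMSI1 replicate 3. With 1 library left out they ranged from -0.0017 to 0.1864 for TLN1, from -0.1566 to 0.0299 for LIMS1 and from -0.061 to 0.026 for PTK2. The cause was not tested. The 13 members under 0.5 FPKM had 40 reads or fewer in each library, too few to test.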

Other observations

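MYLK, the myosin light chain kinase that works on stress fibres, was under the limit of 0.5 FPKM and not tested, yet its groups did not overlap, at 0.265 ± 0.0595 FPKM in siC and 0.654 ± 0.0267 FPKM in siMSI1 (n = 3, 69 to 209 reads per library). It was singled out after its values were seen. AP3M1, on the strand opposite VCL, had a log2 fold change of -0.63 (limma adjusted p = 0.0013) where VCL was at -0.06, and AC068888.1, opposite TNS2, had 0.49 (limma adjusted p = 0.0050) where TNS2 was at -0.35.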
